A study of Mus musculus with 6 samples.

Results

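Collagen VI and the fibril-associated and multiplexin collagens form the matrix around fibrils and cells rather than the thick fibrils themselves. The genes described are Col6a1, Col6a2, Col6a3, Col12a1, Col14a1, Col15a1, Col16a1 and Col18a1, taken by symbol, and all 8 were among the 13734 genes of the deposited table. Poly(A) RNA was sequenced in 3 DICER_KO and 3 control libraries of white fat cells, which were grown and differentiated from a subcutaneous mouse preadipocyte line that had been immortalized. The DICER_KO cultures were Dicer1 flox/flox with Cre-ERT2 and received 10 µM 4-hydroxytamoxifen for 48 h from day 6 of differentiation. The controls carried the same floxed alleles and the same Cre-ERT2, with ethanol in place of the drug, though their titles call them WT control. Isoproterenol, which activates beta-adrenergic receptors, was then given to both groups (10 µM, 6 h). The Dicer1 product is the enzyme that releases mature microRNAs from their hairpins. Deletion and drug exposure cannot be told apart, since no control received 4-hydroxytamoxifen. All cultures come from 1 line, the driver of the Cre is not given in the sources used here, and the labels call the libraries biological replicates without naming separate differentiations, so each p-value covers only how these libraries vary, which may be technical.

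Collagen VI is a beaded microfibril that 3 chains build together, each made by its own gene. In adipose tissue it surrounds the fat cells, and a fragment cut from the carboxyl end of the alpha3 chain, endotrophin, is known as a signal there in mice. The fibril-associated collagens lie on the surface of collagen I fibrils and link them to proteoglycans. Multiplexins sit at basement membrane zones, carry glycosaminoglycan chains and hold anti-angiogenic fragments at their carboxyl ends, endostatin in collagen XVIII and a related fragment in collagen XV.

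The analysed genes held 13569034, 18443315 and 30268077 reads in DICER_KO replicates 1, 2 and 3, against 17219155 to 17680469 reads in the controls. Dicer1 read 5.43, 5.47 and 5.49 log2 CPM (read counts scaled to library size, CPM, on the log2 scale) in DICER_KO, against 6.14, 6.09 and 6.14 in controls, so every DICER_KO library lay lower. The difference was -0.66 (SE 0.10, limma adjusted p = 0.0150), and -0.67 (adjusted p = 0.000234) without DICER_KO replicate 3. Leaving out any other single library, Dicer1 missed an adjusted p under 0.05 (limma adjusted p 0.0568 to 0.147). The cells are labelled white adipocytes, and the share of other cells in each library was not measured. All 8 adipocyte markers of the list used here had reads in every library, from adiponectin and perilipin 1 to lipoprotein lipase. DICER_KO replicate 3 stood apart: the summed level of these markers was 10881, 10745 and 3321 CPM in DICER_KO replicates 1, 2 and 3, against 6679 to 8724 CPM in controls. Because of that library the tests of named genes are given with and without it. The adipocyte sum joins markers that differed in direction. In DICER_KO replicates 1 and 2, Lpl and Cd36 lay below the control mean and the other adipocyte markers above it. In the fit without DICER_KO replicate 3, 5 of the 8 were higher and 0 lower at a limma adjusted p under 0.05. Their median log2 difference in that fit was 0.47, where 12.5% of all genes tested were higher and 7.22% lower. The summed level of 7 preadipocyte or fibroblast markers ran from 2661 to 2705 CPM in DICER_KO, against 2742 to 3287 CPM in controls. This sum hides opposite directions in DICER_KO replicate 3. Its log2 value minus the control mean was 0.87 for Dlk1 and negative for the other tested markers. These were -0.64 for Thy1, -0.52 for Ly6a, -0.32 for Cd34, -0.24 for Pdgfra and -0.12 for Vim, the most abundant of them. Of other cell types, 5 macrophage markers summed to 38.5 to 39.7 CPM in DICER_KO and 33.6 to 38.6 CPM in controls, and 5 endothelial markers to 6.85 to 8.88 CPM in DICER_KO and 5.54 to 6.41 CPM in controls. Both sums hide opposite directions. Tek read 2.48, 2.88 and 2.66 log2 CPM in DICER_KO, against 2.10, 2.00 and 1.93 in controls. Kdr, the other endothelial marker tested, read -2.82, -1.08 and 0.07 in DICER_KO, against 0.33, -0.55 and 0.58 in controls. Of the macrophage markers tested, Cd68 differed by 0.39, Csf1r by -0.16 and Cd14 by -0.17 on the log2 scale. The sum of 7 mural or smooth muscle markers was 565 to 635 CPM in DICER_KO and 592 to 759 CPM in controls, and the skeletal muscle marker Acta1 read 1.13 to 1.62 CPM in DICER_KO and 0.93 to 1.34 CPM in controls. No marker analysed was at 0 in all libraries. In bulk RNA, fewer cells of a type and less RNA per cell cannot be told apart.

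No member passed the limma test across all 10054 genes tested, at a Benjamini-Hochberg adjusted p under 0.05, with all 6 libraries. All 8 entered the test. Over all genes tested 0.438% passed, 0.149% higher and 0.288% lower. By limma-voom, a count-weighted form of the test, 0 members and 0.338% of genes passed. At an unadjusted limma p under 0.05 there were 3 members, Col12a1, Col15a1 and Col16a1, all lower in DICER_KO, where 15.8% of all genes tested had such a p and 7.35% had it with a lower level. Without DICER_KO replicate 3 the same 3 genes passed the adjusted threshold and fell, in a fit where 19.7% of all genes passed, 7.22% lower and 12.5% higher. P-values of that fit leave out the spread that replicate 3 adds. The median log2 difference of the 8 genes, DICER_KO minus control, was -0.24 with all libraries and 0.04 without replicate 3, beside 0.02 for all genes tested in both fits.

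**Figure D1:**
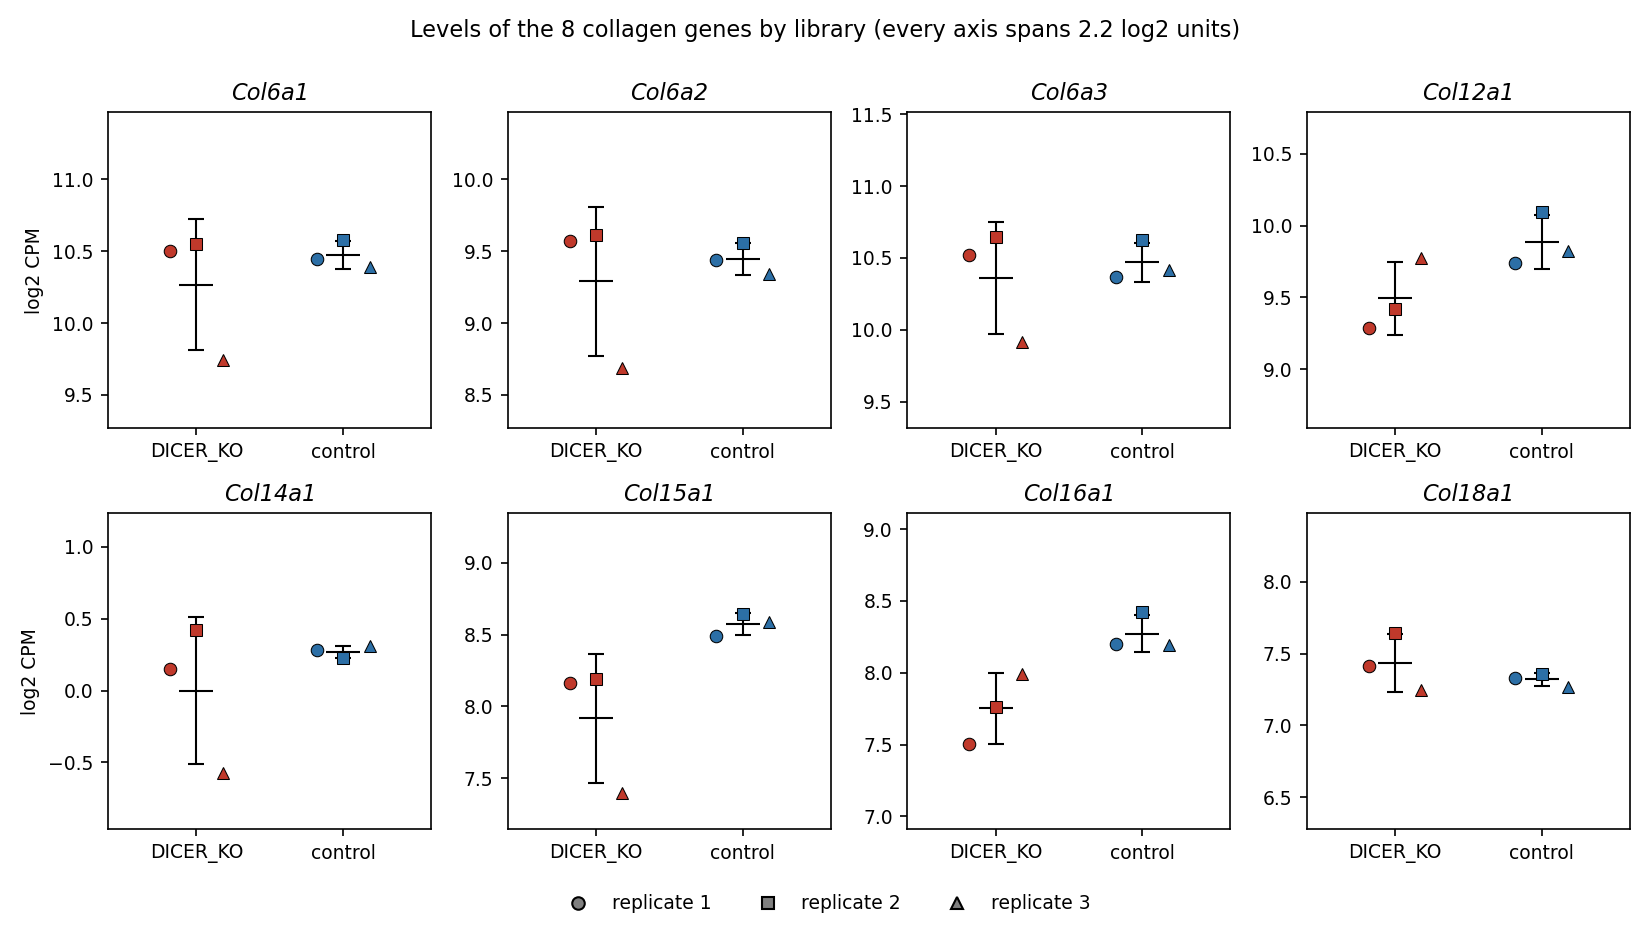
Level of each gene in log2 CPM on the vertical axis, by group, with each library as a point shaped by its replicate number and the mean with its SD as bars. Only Col15a1 and Col16a1 have all 3 DICER_KO libraries below all 3 controls, and DICER_KO replicate 3 is the lowest of the 6 libraries for the collagen VI genes, Col14a1, Col15a1 and Col18a1.

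The 3 collagen VI genes were as high in DICER_KO replicates 1 and 2 as in controls, and lower in replicate 3. Col6a1, the alpha1 chain gene (Entrez 12833; GRCm38 chromosome 10, 76708792 to 76726044, minus strand), stood at 10.50, 10.55 and 9.74 log2 CPM in the DICER_KO libraries in replicate order, against 10.45, 10.58 and 10.39 in the controls. Col6a2, the alpha2 chain gene (Entrez 12834; chromosome 10, 76595756 to 76623630, minus strand), read 9.57, 9.61 and 8.69 in DICER_KO, against 9.44, 9.56 and 9.34 in controls. Col6a3, the longest chain and the source of endotrophin (Entrez 12835; chromosome 1, 90766860 to 90844001, minus strand), read 10.52, 10.65 and 9.92 in DICER_KO, against 10.36, 10.62 and 10.42 in controls. In each of these genes the groups overlapped, because the first and second DICER_KO libraries lay within or just above the controls and replicate 3 lay below every other library. DICER_KO replicate 3 minus the control mean was -0.73 for Col6a1, -0.76 for Col6a2 and -0.55 for Col6a3, on the log2 scale.

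With all libraries Col6a1 differed by -0.21 (SE 0.20, 95% interval -0.65 to 0.23, limma adjusted p = 0.593). Without DICER_KO replicate 3 its difference was 0.057 (95% interval -0.17 to 0.28, adjusted p = 0.720). The Col6a2 difference was -0.16 (95% interval -0.63 to 0.32, limma adjusted p = 0.717) with all libraries and 0.14 (-0.07 to 0.36, adjusted p = 0.330) without that library. For Col6a3 the values were -0.11 (95% interval -0.51 to 0.30, limma adjusted p = 0.779) and 0.12 (-0.12 to 0.35, adjusted p = 0.471). All 3 signs turned when replicate 3 was left out, and the intervals include 0 in both fits. A missed threshold does not show that the levels were equal. The sums of adipocyte markers given above were also lowest in replicate 3; their part in the collagen VI values was not tested.

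The chains were also compared with each other within a library. The Col6a2 to Col6a1 read ratio was 0.523, 0.520 and 0.483 in DICER_KO, against 0.499, 0.493 and 0.483 in controls. The Col6a3 to Col6a1 ratio was 1.01, 1.07 and 1.13 in DICER_KO, against 0.945, 1.03 and 1.02 in controls. Both ratios overlapped between the groups. In DICER_KO replicate 3, where the 3 genes were lowest, the Col6a3 ratio was the highest of the 6 libraries and the Col6a2 ratio was the same as in control 3 to 3 digits. Without that library both DICER_KO values of the Col6a2 ratio lay above the controls. On the log2 scale the groups differed by 0.05 for Col6a2 (two-sided exact permutation p = 0.4, adjusted 0.533) and by 0.10 for Col6a3 (exact permutation p = 0.3, adjusted 0.533). The adjustment is over the 4 ratios tested, and 3 libraries against 3 cannot give a p below 0.1. With DICER_KO replicate 3 left out the differences were 0.086 for Col6a2 (exact permutation p = 0.1, the smallest possible) and 0.059 for Col6a3 (exact permutation p = 0.6). These tests do not show that the ratios were equal.

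**Figure D2:**
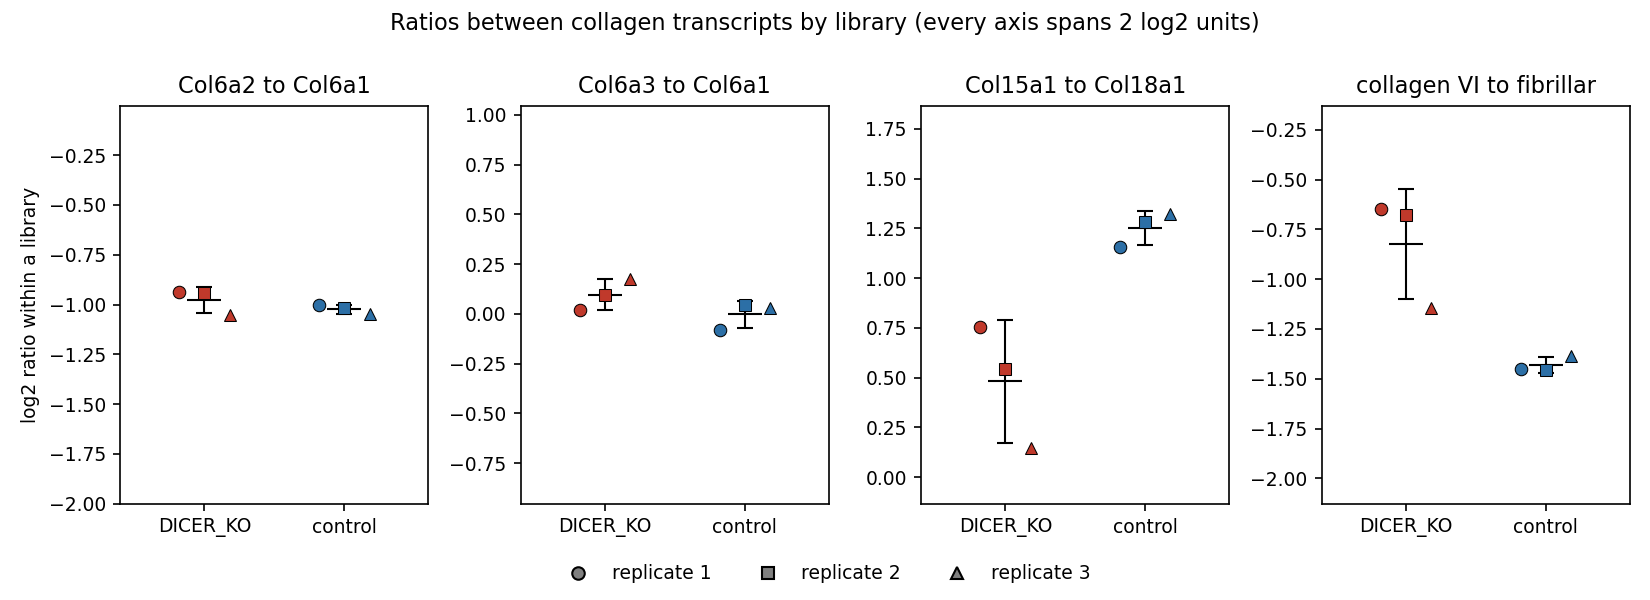
Log2 ratio of reads within each library on the vertical axis, by group, with points for libraries shaped by replicate number and bars for the mean and SD. With all libraries the collagen VI chain ratios overlap between the groups, while Col15a1 to Col18a1 and collagen VI to fibrillar collagen have all DICER_KO libraries on one side of all controls.

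Per length of transcript, collagen VI was the most abundant of these collagens. Levels were divided by the longest protein-coding transcript of GENCODE M21. Col6a1 stood at 310 ± 88 CPM per kilobase in DICER_KO and 347 ± 24 in controls (SD, n = 3 each). Col6a2 stood at 140 ± 44 in DICER_KO and 150 ± 11 in controls, and Col6a3 at 133 ± 33 in DICER_KO and 141 ± 14 in controls (CPM per kilobase, SD, n = 3 each). Col6a2 and Col6a3 overlapped in both groups, and with all annotated exons as the length their order turned, at 78.2 and 113 CPM per kilobase in DICER_KO and 84.0 and 119 in controls. After them came Col12a1 at 63.3 ± 11.4 in DICER_KO and 82.6 ± 11 in controls, Col15a1 at 48.2 ± 13.5 in DICER_KO and 73.8 ± 4.0 in controls, and Col16a1 at 41.8 ± 7.0 in DICER_KO and 59.5 ± 5.5 in controls (CPM per kilobase, SD, n = 3 each). Neighbours among these overlapped in DICER_KO, and in controls Col12a1 overlapped with Col15a1. Col18a1 stood at 31.1 ± 4.3 in DICER_KO and 28.6 ± 0.9 in controls, and Col14a1 at 0.16 ± 0.05 in DICER_KO and 0.187 ± 0.005 in controls (CPM per kilobase, SD, n = 3 each). The order of the 8 means was the same in both groups. In DICER_KO Col16a1, at 34.8 to 48.9 CPM per kilobase, also overlapped with Col18a1, at 27.2 to 35.8.

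Col6a1, Col6a2 and Col18a1 lie near each other on chromosome 10, on the minus strand. A gap of 85.2 kb separates Col6a2 from Col6a1, and 326 kb separate Col6a1 from Col18a1. The promoters of the collagen VI genes are shown because all 3 genes were lowest in DICER_KO replicate 3, and no link was tested. They are RefSeq sequences of GRCm38.p6, from 250 bases before to 50 after an annotated start, on the minus strand, at chr10:76725995-76726294 for Col6a1, chr10:76623355-76623654 for Col6a2 and chr1:90843922-90844221 for Col6a3. Capitals mark the GC box GGGCGG or its reverse complement CCGCCC, of which overlapping matches are counted.
Col6a1 promoter: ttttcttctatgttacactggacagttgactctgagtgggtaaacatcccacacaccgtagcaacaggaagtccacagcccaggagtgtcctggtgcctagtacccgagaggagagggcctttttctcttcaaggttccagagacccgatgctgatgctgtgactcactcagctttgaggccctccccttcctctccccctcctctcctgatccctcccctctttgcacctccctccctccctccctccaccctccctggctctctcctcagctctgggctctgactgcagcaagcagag
Col6a2 promoter: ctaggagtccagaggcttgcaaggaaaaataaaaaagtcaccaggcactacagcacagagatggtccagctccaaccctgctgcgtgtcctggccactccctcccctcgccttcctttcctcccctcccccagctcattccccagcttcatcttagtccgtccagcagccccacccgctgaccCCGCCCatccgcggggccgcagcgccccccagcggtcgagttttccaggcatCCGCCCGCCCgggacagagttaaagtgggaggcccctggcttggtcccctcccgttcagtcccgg
Col6a3 promoter: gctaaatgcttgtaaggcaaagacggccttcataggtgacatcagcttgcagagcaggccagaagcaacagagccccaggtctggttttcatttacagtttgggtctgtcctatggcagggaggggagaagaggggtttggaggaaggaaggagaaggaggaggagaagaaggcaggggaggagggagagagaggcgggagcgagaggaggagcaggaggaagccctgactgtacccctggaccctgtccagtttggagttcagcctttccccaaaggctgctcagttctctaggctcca
The Col6a2 window holds 3 GC box matches and the other windows hold 0, where 35.7% of 32851 RefSeq promoters of 300 bases hold at least 1. A TATAAA or CCAAT sequence on either strand was found in none of these 3 windows, where 13.6% and 37.4% of all promoters hold one. Col6a2 has a further start, whose window holds 1 GC box match. The GC content was 57.3, 64.3 and 56.3% for the printed windows of Col6a1, Col6a2 and Col6a3, beside a median of 52.7% for all promoters.

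Of the fibril-associated collagens, Col16a1 stood below all 3 controls in each DICER_KO library. Collagen XVI is a minor component of fibroblast matrix with an interrupted triple helix. Col16a1 (Entrez 107581; chromosome 4, 130047817 to 130099277, plus strand) read 7.50, 7.76 and 7.99 log2 CPM in DICER_KO, against 8.20, 8.42 and 8.19 in controls. The groups did not overlap, with replicate 3 the DICER_KO library nearest to the controls. Its difference of -0.52 (SE 0.14, 95% interval -0.82 to -0.22), a level of 0.698 of the control, missed the threshold over all genes (limma adjusted p = 0.123). Without DICER_KO replicate 3 Col16a1 fell by 0.64 (adjusted p = 0.000845).

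Col12a1, the collagen XII gene whose product binds decorin and tenascin-X along fibrils, differed most in the DICER_KO libraries where collagen VI did not. Col12a1 (Entrez 12816; chromosome 9, 79598987 to 79721141, minus strand) read 9.29, 9.42 and 9.78 log2 CPM in DICER_KO, against 9.74, 10.10 and 9.82 in controls. DICER_KO replicate 3 lay just above control 1, so the groups overlapped. With all libraries the difference was -0.39 (SE 0.15, 95% interval -0.73 to -0.06, limma adjusted p = 0.268), a level of 0.763 of the control. Leaving out replicate 3, Col12a1 fell by 0.53 (adjusted p = 0.00461).

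Col14a1, the collagen XIV gene, was close to the lower limit of the test. The gene (Entrez 12818; chromosome 15, 55307644 to 55520803, plus strand) had 19, 32 and 28 reads in DICER_KO, against 28, 26 and 28 in controls. In log2 CPM it read 0.15, 0.42 and -0.57 in DICER_KO, against 0.28, 0.23 and 0.31 in controls. The difference of -0.27 had a 95% interval from -0.97 to 0.43 (limma adjusted p = 0.667), so a change of about this size was not detectable at this depth. Without replicate 3 the difference was 0.014 (adjusted p = 0.977). The log2 ratio of Col12a1 to Col14a1 differed by -0.12 between the groups (two-sided exact permutation p = 0.9, adjusted 0.9) and by -0.55 without DICER_KO replicate 3 (exact permutation p = 0.1), and it rests on those few reads. Of the other chains of these classes, Col6a4, Col6a5, Col6a6, Col9a2, Col9a3 and Col22a1 were below the filter, with at most 29 reads in any library. Col20a1 alone was tested, and its difference was -0.64 (limma adjusted p = 0.260), with 0.84, 1.43 and 1.73 log2 CPM in DICER_KO against 2.05, 1.98 and 1.89 in controls. Col20a1 fell by 0.84 (adjusted p = 0.0174) without DICER_KO replicate 3.

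The multiplexin genes are Col15a1 and Col18a1. Col15a1, the collagen XV gene (Entrez 12819; chromosome 4, 47207655 to 47313167, plus strand), read 8.16, 8.19 and 7.40 log2 CPM in DICER_KO, against 8.49, 8.64 and 8.59 in controls. Every DICER_KO library lay below every control, and replicate 3 lay lowest. Over all genes tested, 9.81% had all DICER_KO libraries below all controls, beside 2 of these 8 genes, Col15a1 and Col16a1. The Col15a1 difference was -0.66 (SE 0.19, 95% interval -1.07 to -0.24), the largest of the 8 with all libraries and a level of 0.634 of the control, and it missed the threshold over all genes (limma adjusted p = 0.159). Without DICER_KO replicate 3 Col15a1 fell by 0.40 (adjusted p = 0.00876), since the library left out held the lowest value. The antisense gene Gm12426 shares 14 exonic bases with Col15a1 and is not analysed here, and the counting is not stated to use strand.

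Col18a1, the source of endostatin (Entrez 12822; chromosome 10, 77052178 to 77166530, minus strand), read 7.41, 7.65 and 7.25 log2 CPM in DICER_KO, against 7.33, 7.36 and 7.27 in controls. Its values overlapped, with DICER_KO replicates 1 and 2 above the controls and replicate 3 just below them. The difference was 0.11 (SE 0.12, 95% interval -0.14 to 0.37, limma adjusted p = 0.616), and 0.21 (adjusted p = 0.154) without replicate 3. Within a library, the log2 ratio of Col15a1 to Col18a1 reads was 0.75, 0.54 and 0.15 in DICER_KO, against 1.16, 1.28 and 1.32 in controls. This ratio does not depend on library scaling, and the groups did not overlap. Its log2 value differed by -0.77 (two-sided exact permutation p = 0.1, the smallest that 3 libraries against 3 can give, adjusted 0.4), and by -0.60 without DICER_KO replicate 3.

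**Figure D3:**
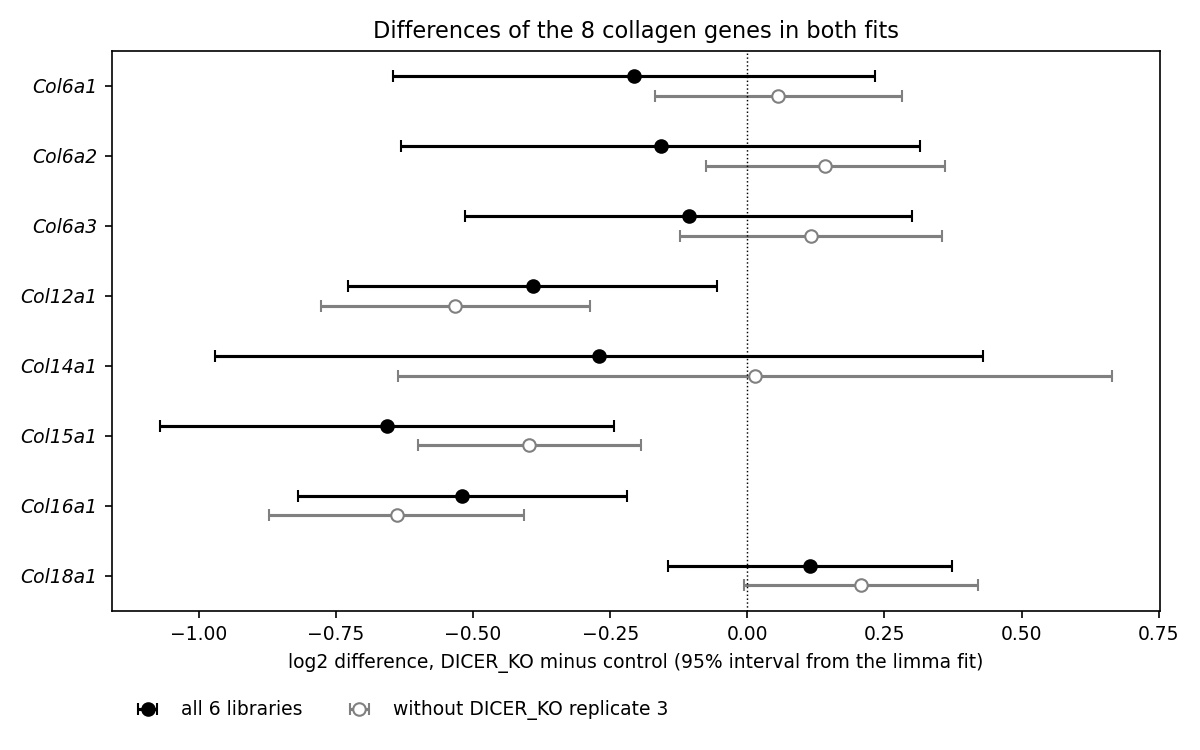
Log2 difference of each gene, DICER_KO minus control, on the horizontal axis with its 95% interval from the limma fit, with all libraries (filled) and without DICER_KO replicate 3 (open). Col12a1, Col15a1 and Col16a1 are below 0 in both fits, and the collagen VI genes cross from below to above 0 when replicate 3 is left out.

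Sequence matches to a microRNA family known to act on collagen transcripts were looked up, since Dicer1 makes the mature microRNAs. The mature forms of miR-29 share their seed, bases 2 to 8, shown in capitals, and let-7a is shown as the family with a match in Col14a1 (RefSeq, GRCm38.p6).
mmu-miR-29a-3p: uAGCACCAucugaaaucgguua
mmu-miR-29b-3p: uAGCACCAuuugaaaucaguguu
mmu-miR-29c-3p: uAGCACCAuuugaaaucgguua
mmu-let-7a-5p: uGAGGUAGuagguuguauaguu
Each gene was searched in its longest 3' UTR of GENCODE M21, sense strand only: the miR-29 seed match TGGTGCT was present in 4 of 8 members and in 15.7% of 9435 tested genes. The let-7 match CTACCTC was present in 1 member and in 10.8% of those genes. The matches are printed with their surroundings, with the match in capitals.
Col6a2, miR-29: cacaaatgggggTGGTGCTatttgaacgc
Col6a3, miR-29: gacctgtcaataTGGTGCTaaatgtgtct
Col15a1, miR-29: caatccacatatTGGTGCTagattctgca
Col16a1, miR-29: atggggttccccTGGTGCTgca
Col14a1, let-7: tcactgaggaaaCTACCTCctacttgttt
The capitals lie at chr10:76598751-76598757, chr1:90767412-90767418, chr4:47312500-47312506, chr4:130099268-130099274 and chr15:55520459-55520465 (GRCm38), in the order printed. Col6a1, Col12a1 and Col18a1 held neither match in these windows. A match is a description of letters and not a measured site. The log2 differences with all libraries were -0.16, -0.11, -0.66 and -0.52 for the members with a miR-29 match, Col6a2, Col6a3, Col15a1 and Col16a1, and -0.21, -0.39, -0.27 and 0.11 for those without, Col6a1, Col12a1, Col14a1 and Col18a1. With all libraries only Col18a1, which held neither match, had a positive difference, and its groups overlapped. Whether the matches bear on these levels was not tested. Without replicate 3 Col6a2 and Col6a3 differed by 0.14 and 0.12, while Col15a1 and Col16a1 fell.

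Fibrillar collagens, on whose fibrils collagens XII and XIV sit, held genes that passed the test with all libraries. Of 6 tested fibrillar genes 2 fell and 0 rose with all libraries, where 0.288% of all genes tested fell. Col3a1, the collagen III gene, fell by 1.44 (SE 0.17, limma adjusted p = 0.00856), and Col5a2, a collagen V gene that limits fibril width, fell by 0.87 (SE 0.11, adjusted p = 0.00959). The genes fell by 1.25 (Col3a1, adjusted p = 3.09e-06) and 0.83 (Col5a2, adjusted p = 7.00e-05) without DICER_KO replicate 3. Col5a2 read 9.39, 9.47 and 9.31 log2 CPM in DICER_KO, against 10.24, 10.38 and 10.16 in controls, with replicate 3 near the others. Leaving out control replicate 3, the adjusted p was 0.0786 for Col3a1 and for Col5a2, and Col5a2 also missed the threshold without control replicate 1 (0.0799) or 2 (0.0719). The fibrillar list's median difference was -0.57, and -0.53 without DICER_KO replicate 3, where 4 fell and 0 rose and 7.22% of all genes tested fell. Reads on the 3 collagen VI genes were 0.638, 0.625 and 0.453 times those on the 6 fibrillar genes in DICER_KO, against 0.365, 0.365 and 0.382 times in controls. Each DICER_KO library was above each control, and the mean log2 ratio was higher by 0.61, and by 0.77 without replicate 3. This sum was chosen after its parts were seen and is given with no test.

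Of the 16 tested genes that fold and secrete collagen chains, 1 fell and 0 rose with all libraries, where 0.288% of all genes tested fell. Creb3l1, a membrane-bound transcription factor known in bone to act on collagen I genes, fell by 0.73 (SE 0.12, limma adjusted p = 0.0358). Creb3l1 read 6.08, 5.93 and 5.90 log2 CPM in DICER_KO, against 6.78, 6.84 and 6.48 in controls, and fell by 0.69 without replicate 3 (adjusted p = 0.000723). The median of these 16 genes was -0.37, and -0.43 without replicate 3, where 13 fell and 0 rose, beside 7.22% of all genes that fell and 12.5% that rose. The Creb3l1 call was lost without DICER_KO replicate 2 or any 1 control (adjusted p 0.0786 to 0.182). Among the 13 was the prolyl hydroxylase gene P4ha1, which differed by -0.45 (adjusted p = 0.147) with all libraries and fell by 0.54 (adjusted p = 0.00232) without replicate 3. For P4ha3, of the same enzyme family, the difference was -0.63 (adjusted p = 0.0828), and the gene fell by 0.62 (adjusted p = 0.00777) without replicate 3. The collagen chaperone gene Serpinh1 differed by -0.36 (adjusted p = 0.206) and fell by 0.40 (adjusted p = 0.0181) without replicate 3.

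In the lists of binding partners, receptors, proteases and basement membrane genes 0 genes passed with all libraries, and 5, 5, 6 and 2 had an unadjusted limma p under 0.05, of 10, 9, 12 and 7 tested, where 15.8% of all genes had such a p. Without DICER_KO replicate 3, where 7.22% of all genes fell and 12.5% rose, 5 fell and 0 rose among binding partners, 2 fell and 1 rose among receptors, 2 fell and 0 rose among proteases and their inhibitors, and 3 fell and 0 rose among basement membrane genes. Dcn, the decorin gene, had the smallest p of the binding partners and differed by -0.81 (limma adjusted p = 0.0814), with 8.97, 9.58 and 9.24 log2 CPM in DICER_KO against 9.93, 9.93 and 10.37 in controls. Without replicate 3 Dcn fell by 0.80 (adjusted p = 0.00273). Tnxb, the tenascin-X gene, differed by -0.11 (adjusted p = 0.697), and by 0.04 (0.821) without replicate 3. Among receptors Mrc2, the endocytic collagen receptor gene, differed by -0.44 (adjusted p = 0.172) and fell by 0.53 (adjusted p = 0.00380) without replicate 3. Cspg4, which encodes the collagen VI-binding proteoglycan NG2, read 5.38, 5.24 and 4.60 log2 CPM in DICER_KO, against 4.61, 4.56 and 4.43 in controls. Cspg4 differed by 0.54 (limma adjusted p = 0.228) with all libraries and rose by 0.78 (adjusted p = 0.000241) without replicate 3. Antxr1, a receptor of the endotrophin fragment, differed by -0.25 (adjusted p = 0.299), and by -0.28 (adjusted p = 0.0663) without replicate 3. Bmp1, the procollagen protease that also cuts the collagen VI alpha3 end, differed by -0.30 (adjusted p = 0.276), and by -0.19 (adjusted p = 0.169) without replicate 3. Mmp14, a membrane-bound collagenase, differed by 0.23 (adjusted p = 0.321), and by 0.24 (adjusted p = 0.107) without replicate 3. Among the proteases Adamts2, which removes procollagen amino ends, had the smallest p and differed by -0.35 (adjusted p = 0.202), and it fell by 0.39 (adjusted p = 0.0152) without replicate 3. Of the basement membrane genes near collagens XV and XVIII, the nidogen gene Nid1 differed by -0.52 (limma adjusted p = 0.112) and fell by 0.60 (adjusted p = 0.00104) without replicate 3. The median difference was -0.26 for binding partners, -0.08 for receptors, -0.13 for proteases and -0.25 for basement membrane genes with all libraries. Without replicate 3 the medians were -0.27, -0.13, -0.15 and -0.24 in that order. Cspg4, Antxr1, Bmp1, Mmp14, Tnxb, P4ha1, P4ha3 and Serpinh1 were named after their values were seen.

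**Figure D4:**
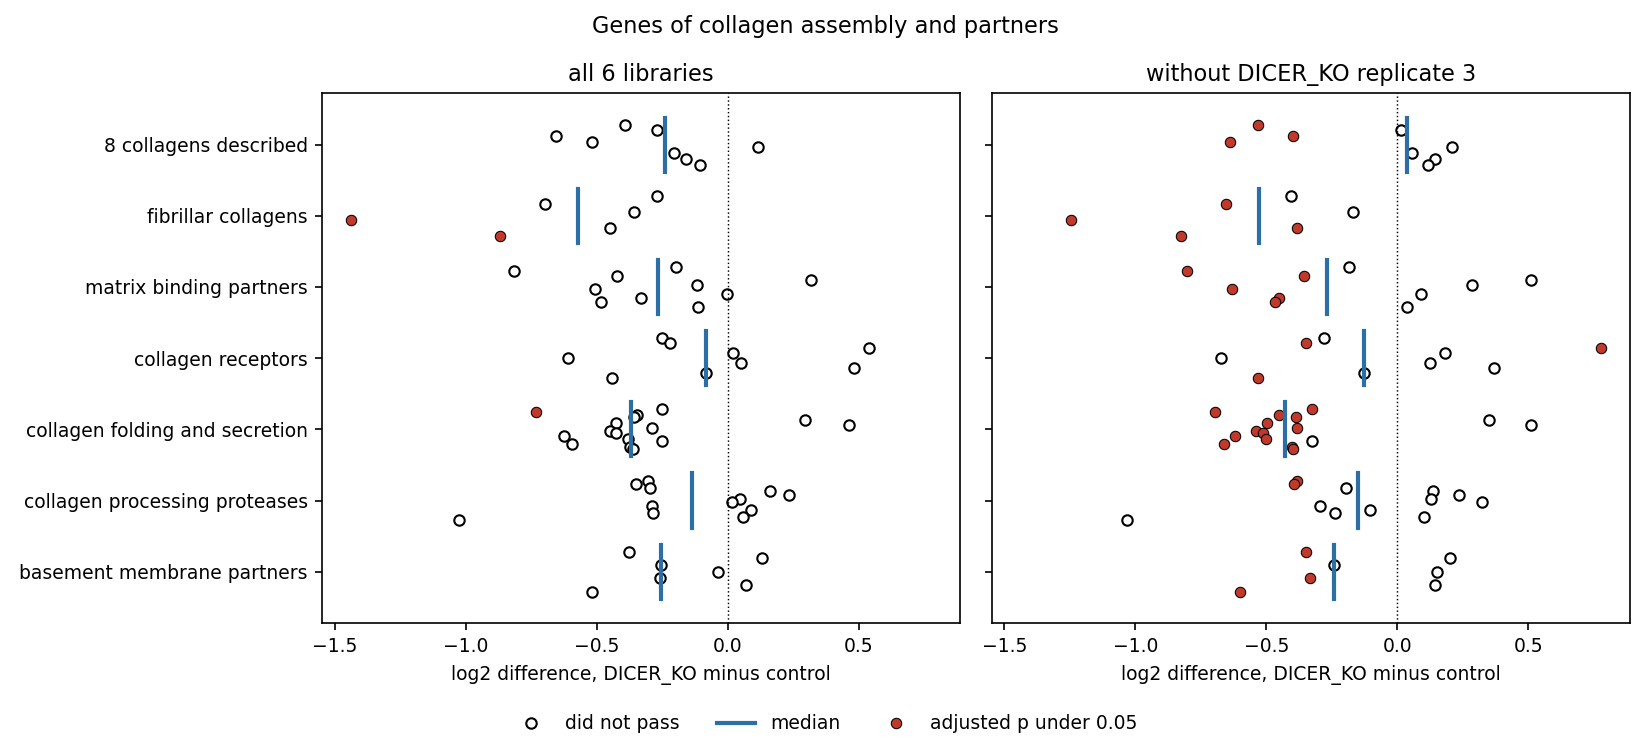
Log2 difference of each tested gene, DICER_KO minus control, on the horizontal axis, by list from top to bottom, with all libraries on the left and without DICER_KO replicate 3 on the right. Filled points passed an adjusted p under 0.05 and bars mark each list's median. Only 2 fibrillar collagens and Creb3l1 are filled on the left. On the right every list shown has filled points, and the folding and secretion list has 13.

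Over the 6 libraries, the genes whose levels followed the collagen VI genes most closely were Cables1, Gstt1, Cidec, Adh1 and Ormdl3. Likeness was Pearson's r with the mean centred profile of Col6a1, Col6a2 and Col6a3, among 8249 genes with a mean of at least 5 CPM. It was 0.990 for Cables1, 0.988 for Gstt1, 0.985 for Cidec, 0.982 for Adh1 and 0.981 for Ormdl3. Cidec, a lipid droplet protein gene, read 8.33, 8.48 and 6.89 log2 CPM in DICER_KO, against 8.18, 8.22 and 7.95 in controls. The points share DICER_KO replicate 3, which is the lowest for all 5 genes. By the same measure r was 0.81 for Col15a1, 0.61 for Col18a1, -0.06 for Col16a1 and -0.19 for Col12a1.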

How the data were processed

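RNA-seq libraries of poly(A) RNA came from 3 DICER_KO and 3 control cultures (NEBNext Ultra II kit, per the labels). The authors deposited 1 table of log2 CPM, in which each library has its column. According to the submitters' processing notes the tools were FastQC, Trimmomatic, HISAT2 with featureCounts, and edgeR, on mm10 (GRCm38). TMM scaling is named in the series' design text. The values equal log2 CPM computed from k + 0.5 and N + 1 for whole reads k, with 100% whole at a tolerance of 0.01 reads. The library size N they imply ran from 17594568 to 42331787, and 71.5 to 77.1% of it lay on the genes in the table; whether N already carries the TMM scaling is not given in the sources used here. Reads outside the table are not analysed here.

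The deposited log2 values of genes reaching 1 CPM in 3 or more libraries were tested with limma 3.58.1 (R 4.3.3), with an intensity trend and a group term alone. Benjamini-Hochberg adjustment covered every gene tested, and 0.05 was the threshold. The test was checked on simulated counts with the same setting for spread in every gene and no library set apart. That check does not cover data with a library like DICER_KO replicate 3. Members and lists were chosen with earlier results of these data known. Named genes are the members, Dicer1, up to 2 genes in each direction per list past the threshold (else the smallest p) and 5 genes most like collagen VI. 13682 of 13734 Entrez IDs matched a RefSeq symbol (GRCm38.p6), and 6 of 8 members had a promoter entry. Alternatives changed scaling, filter, pseudocount, test, replicate term and libraries. Other steps ran in Python 3.11.15 with scipy 1.17.1, and figures were drawn with matplotlib 3.10.9.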

Additional observations from a re-analysis of the deposited data

How the results depend on the processing

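No member's direction or call changed under the 9 alternatives of scaling, filter, pseudocount, test and replicate term, in 71 member and setting pairs (Col14a1 was not tested under the filter at 5 CPM). Leaving out DICER_KO replicate 3 turned the differences of Col6a1, Col6a2, Col6a3 and Col14a1, which over the left-out libraries ran from -0.35 to 0.057, -0.32 to 0.14, -0.25 to 0.12 and -0.48 to 0.014, and 3 members then passed; the cause was not tested. Over the left-out libraries 0 to 3 members and 1 to 1983 genes passed, where all libraries gave 0 and 44; the 3 and the 1983 are those without DICER_KO replicate 3, and 19, 11, 10 and 1 genes passed without DICER_KO replicate 2 and control replicates 1, 2 and 3. Without limma's intensity trend 19 genes passed. Same-numbered libraries deviated together with r of 0.20, -0.01 and -0.08, and unlike-numbered ones with r from -0.23 to 0.17. Values from so few libraries cannot decide whether the numbers pair the libraries. With a replicate block 2 genes and 0 members passed. Leaving out each library, the group difference (DICER_KO minus control) in the log2 ratio of Col12a1 to Col14a1 ran from -0.55 to 0.13. That difference turned without DICER_KO replicate 1 or 2 or control replicate 2. The group difference for Col15a1 to Col18a1 ran from -0.91 to -0.60, and that for collagen VI to fibrillar reads from 0.52 to 0.77. For Col6a3 to Col6a1 the group difference ran from 0.06 to 0.14, and for Col6a2 to Col6a1 from 0.03 to 0.09. The sum ratio and the list counts without DICER_KO replicate 3 were added after seeing the data. Depth limits Col14a1, at 19 to 32 reads a library.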
